A study of Homo sapiens with 4 samples.

Results

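The genes described here are those of the NF-kB pathway and its best known targets in a human osteoblast line that was followed through differentiation. A fixed list of 38 genes defined them, among 19610 mRNA gene symbols, by what each gene is known to do, though earlier results of these data were known when it was drawn up. The list holds 5 NF-kB subunits, 5 genes of the IkB family, 5 kinases, 7 receptors, 5 adaptors and ubiquitin ligases, 3 further feedback inhibitors and 8 effector targets. The cells were hFOB 1.19, a fetal osteoblast line immortalised with a temperature-sensitive large T antigen of SV40, so that it divides at a permissive culture temperature and differentiates at a higher, restrictive one. The day 0 library is the control at the permissive temperature, and the libraries of days 3, 6 and 9 come from cells mineralizing at the restrictive temperature. No stimulus such as TNF, interleukin 1 or lipopolysaccharide is named for any group. Each time point has 1 library of total RNA, so no value has a replicate error, and no test across time points was possible. All later libraries differ from day 0 in temperature as well as in time, and those causes cannot be told apart in a comparison with day 0, whereas days 3, 6 and 9 share 1 temperature.

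NF-kB is a family of dimeric transcription factors built from RELA, RELB, REL and the products of NFKB1 and NFKB2. In resting cells IkB proteins hold the dimers in the cytoplasm. Receptors of the Toll-like, interleukin 1 and TNF families act through adaptors and ubiquitin ligases on the IkB kinase complex, which marks IkB for degradation, and the freed dimers enter the nucleus and bind kB sites. A slower, non-canonical branch processes the NFKB2 precursor and acts mainly through RELB. Many targets are themselves inhibitors (NFKBIA, TNFAIP3, TNIP1), which closes a feedback loop. In osteoblasts the pathway is known for its response to inflammatory cytokines and for restraining bone formation, and transcript levels do not measure its activity in the nucleus.

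Promoter sequences of the members are given first, since NF-kB dimers bind kB sites. RefSeq promoter windows on GRCh38.p14, from 250 bases before to 50 after a start, were given for 33 of the 38 members in 51 windows, and none for RELB, NFKBIE, IKBKB, CD40 or IER3. The 10-base NF-kB consensus was searched on both strands. It occurred in 14 of these 33 members (42.4%), against 13.3% of all 27305 symbols with a window. A tighter form, GGGNNTTTCC, whose matches with a purine at the fourth base are also matches of the consensus, occurred in 9 members (27.3%) and in 2.33% of all symbols. Many members were listed because NF-kB is known to act on them, so these shares describe the list. The windows below are those of 4 members that were at least 2-fold higher on day 9 than on day 0, and of MAP3K8, which was lower. They run 5′ to 3′ on the strand of the gene, and capitals mark consensus matches on either strand.
TNFAIP3: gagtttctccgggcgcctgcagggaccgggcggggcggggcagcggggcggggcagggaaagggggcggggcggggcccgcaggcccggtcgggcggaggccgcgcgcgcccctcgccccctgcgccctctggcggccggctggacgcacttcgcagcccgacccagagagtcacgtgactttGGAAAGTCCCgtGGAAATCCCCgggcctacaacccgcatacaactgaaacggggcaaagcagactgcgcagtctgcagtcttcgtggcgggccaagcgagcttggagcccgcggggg
BIRC3: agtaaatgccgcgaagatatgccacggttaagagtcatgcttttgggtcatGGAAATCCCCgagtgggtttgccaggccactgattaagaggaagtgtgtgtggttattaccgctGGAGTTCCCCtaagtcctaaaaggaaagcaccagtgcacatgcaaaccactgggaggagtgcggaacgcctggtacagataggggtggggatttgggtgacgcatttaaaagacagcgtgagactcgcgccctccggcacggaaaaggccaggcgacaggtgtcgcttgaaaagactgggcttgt
NFKB2: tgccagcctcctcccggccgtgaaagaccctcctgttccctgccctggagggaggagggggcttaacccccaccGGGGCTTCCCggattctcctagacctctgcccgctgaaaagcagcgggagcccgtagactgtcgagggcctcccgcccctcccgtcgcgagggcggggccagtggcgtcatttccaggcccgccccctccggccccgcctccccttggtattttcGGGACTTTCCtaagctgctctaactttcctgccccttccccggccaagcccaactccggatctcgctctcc
VCAM1: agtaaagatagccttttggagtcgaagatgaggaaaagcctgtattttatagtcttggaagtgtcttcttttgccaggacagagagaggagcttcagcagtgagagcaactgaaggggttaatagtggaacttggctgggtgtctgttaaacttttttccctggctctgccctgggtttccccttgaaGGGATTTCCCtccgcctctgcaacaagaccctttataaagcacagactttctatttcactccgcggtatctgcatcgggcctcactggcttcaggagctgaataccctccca
MAP3K8: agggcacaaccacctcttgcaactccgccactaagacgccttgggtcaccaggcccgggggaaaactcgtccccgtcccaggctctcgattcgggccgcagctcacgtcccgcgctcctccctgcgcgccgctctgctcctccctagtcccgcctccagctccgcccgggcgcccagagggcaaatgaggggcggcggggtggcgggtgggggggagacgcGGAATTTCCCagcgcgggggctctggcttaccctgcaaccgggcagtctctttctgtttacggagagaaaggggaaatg

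The TNFAIP3 window (chr6:137867009-137867308, plus strand) holds a pair of sites close together, GGGACTTTCC beginning 67 bases and GGGGATTTCC beginning 55 bases before the start, both read on the opposite strand. The BIRC3 window (chr11:102317234-102317533, plus strand) also holds a pair on the opposite strand, GGGGATTTCC at 199 and GGGGAACTCC at 135 bases before the start. In the NFKB2 window shown (chr10:102395455-102395754, plus strand), GGGACTTTCC begins 21 bases before the start, and GGGGCTTCCC begins 176 bases before it and matches on both strands. A second NFKB2 window (chr10:102394328-102394627) holds GGGAATTCCC at 107 and GGGGCTTTCC at 78 bases before its start. VCAM1 (chr1:100719492-100719791, plus strand) has GGGATTTCCC at 62 bases before the start. MAP3K8 (chr10:30433771-30434070, plus strand) has GGGAAATTCC at 29 bases before the start on the opposite strand, and an overlapping MAP3K8 window shares this site.

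The letters GGGAATTTCC occurred in the windows of 5 members, namely NFKB1 at 49, REL at 46, NFKBIA at 81, NFKBIB at 28 and NFKBIZ at 223 bases before the start, those of REL and NFKBIA on the opposite strand. TNIP1 carries GGGACTTTCC at 42 bases before the start, the same letters as TNFAIP3 and NFKB2. The remaining members with a match were PTX3 with GGGAACTCCC at 96 bases before, BCL3 with GGGAAGTCCC at 2 bases after and IRAK1 with GGGGCGCCCC at 114 bases before the start. Matches were found both in members that changed and in members that did not. The consensus was in the windows of 8 of 15 members that were 2-fold higher on any day, in 2 of 3 that were lower (MAP3K8 and IRAK1) and in 4 of 14 within the limit on every day (NFKB1, NFKBIA, NFKBIB and REL). It was not in the windows given for SOD2, ICAM1, BCL2A1, TRAF1, IRAK2, TLR3 or TNFAIP6. This says only that no exact match lies in those 300 bases. A site that differs from the consensus at a single base, as one in the ICAM1 window does, was not counted.

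**Figure D1:**
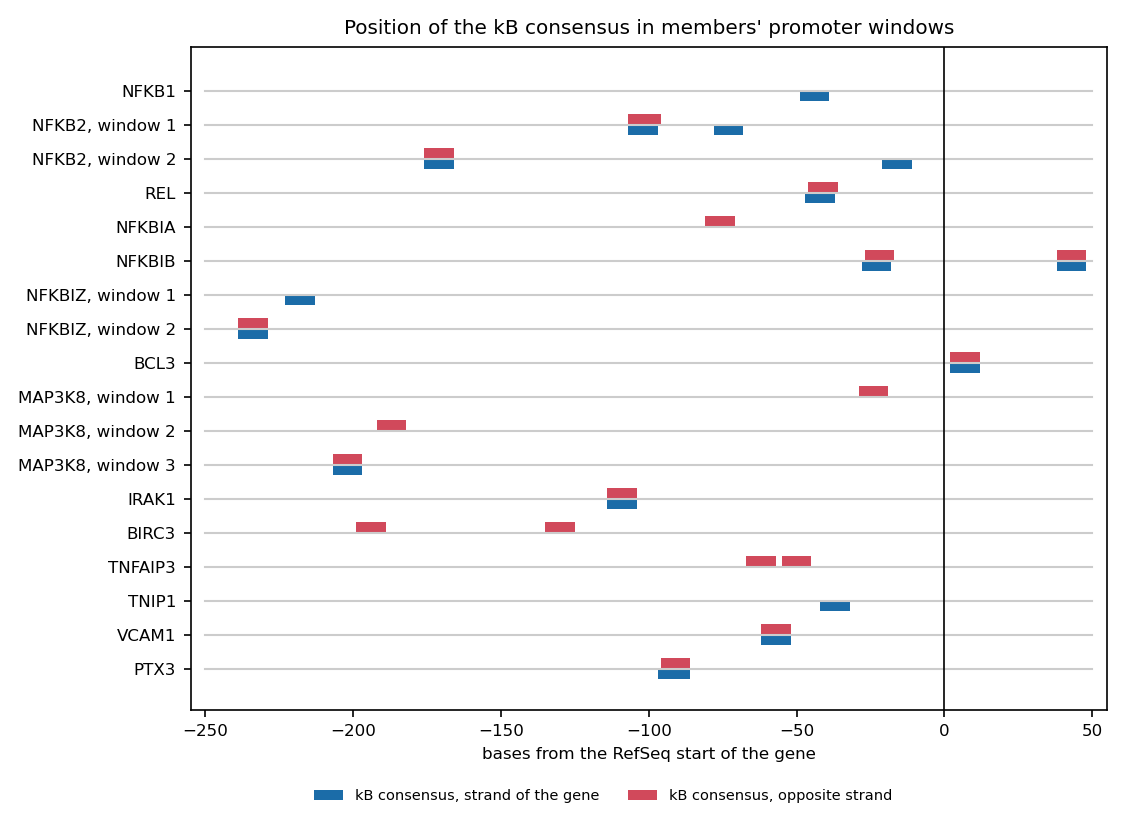
Position of each consensus match, in bases from the RefSeq start (0 on the x axis), in the 18 member windows that hold one, with matches on the strand of the gene in blue and on the opposite strand in red. Matches lie between 239 bases before and 38 bases after the start, and those of TNFAIP3, TNIP1 and VCAM1 lie within 67 bases before it.

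Expression was read as FPKM (fragments per kilobase of transcript scaled to the mapped fragments of the library), which is a level per length and can be compared between genes. A ratio below is the log2 of (FPKM + 1) over (FPKM + 1), so it understates changes, most of all in genes near or below 1 FPKM. A member was called higher or lower when this ratio was at least 1 or at most -1, that is 2-fold with 1 FPKM added. At least 1 FPKM in any library was required. A gene of several FPKM can therefore fall just under the limit, as TNFAIP3 did on day 3 at 2.03-fold in FPKM. Of the 38 members, 37 passed this minimum, and TLR2 did not. The same rule was applied to all 12859 gene symbols that passed it, and the share called there is the background for each count.

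By day 9 nearly every second member was at least 2-fold higher than on day 0. On day 3, 4 of 37 members were higher (10.8%, against 8.13% of all genes), and 3 were lower (8.11%, against 5.30%). These counts were close to the background, though the ratio was above 0 in 25 of the 37 members and in 5770 of all 12859 genes. On day 6, 15 members were higher (40.5%, background 9.01%) and 2 were lower (5.41%, background 6.42%). On day 9, 18 members were higher (48.6%, background 9.60%) and 2 were lower (5.41%, background 6.52%). The median ratio of the members was 0.37, 0.74 and 0.91 on days 3, 6 and 9, beside medians of -0.08, -0.08 and -0.09 over all genes. In the day 3 comparison BIRC3, CD40, NFKBIZ, IRAK2 and TNFAIP3 lay just under the limit, at ratios of 0.94 to 0.998. The count rose to 10 of 37 members when every library was rescaled to the same FPKM total, where 1398 of 12874 genes (10.9%) were higher. With size factors it was 9 of 37 members, beside 1250 of 12864 genes (9.72%). Under both rescalings the share of members was thus above that of all genes. The 3 comparisons share the day 0 library. Past the limit on all 3 days were 4 higher members, TLR3, VCAM1, SOD2 and IER3 (background 5.93%), and 2 lower members, MAP3K8 and MYD88 (background 3.45%).

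**Figure D2:**
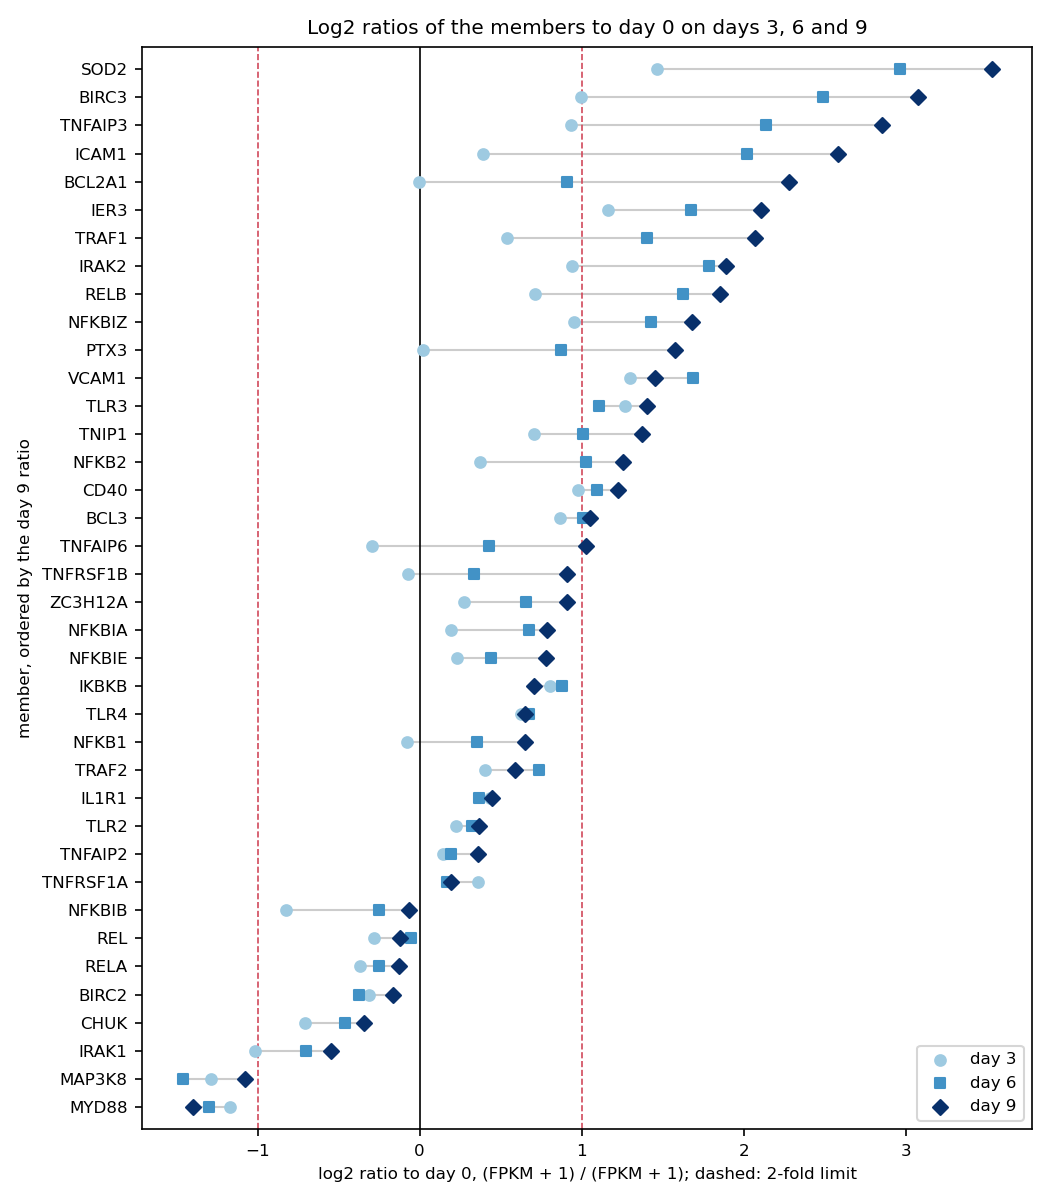
Log2 ratio of FPKM + 1 to day 0 for the 38 members, ordered by day 9, with 1 marker per later day and dashed lines at the 2-fold limit. SOD2 (3.53) and BIRC3 (3.08) stand highest on day 9, and MYD88 (-1.40) and MAP3K8 (-1.08) lowest.

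Many members went on climbing from one library to the next. FPKM rose at each of the 3 steps in 18 of 37 members (48.6%), while this was so in 11.9% of all genes, and fell at each step in 1 member, MYD88 (background 13.0%). Between day 3 and day 6, which share the temperature, 4 members were 2-fold higher (10.8%, background 0.607%) and 0 were lower (background 0.443%). The 4 were ICAM1 (1.63), SOD2 (1.5), BIRC3 (1.49) and TNFAIP3 (1.20). Between day 6 and day 9, 1 member was 2-fold higher, BCL2A1 at 1.37 (2.70%, background 0.381%), and 0 were lower (background 0.163%). In both later intervals 31 of 37 members had a ratio above 0, beside 6372 and then 6790 of all 12859 genes. The members' medians were 0.38 and 0.23, while the medians of all genes were -0.00 and 0.01. At 1 library per time point these steps have no replicate check.

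**Figure D3:**
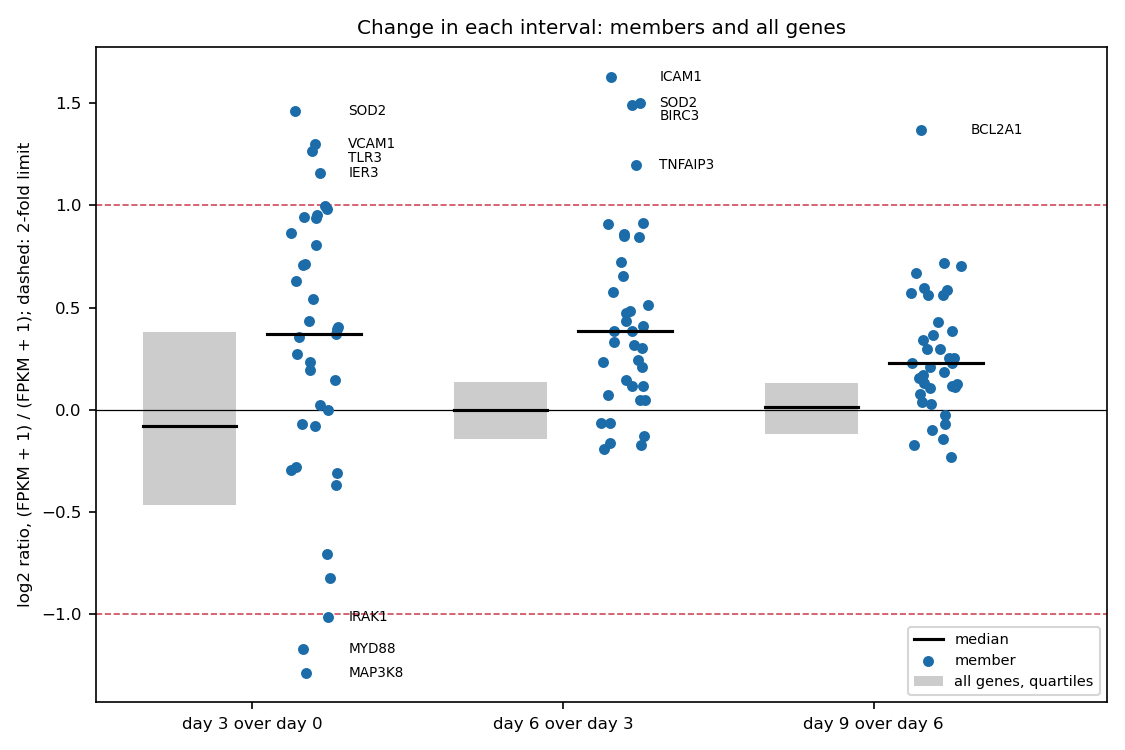
Log2 ratio of FPKM + 1 in each successive interval for the 37 members past the minimum (points, with the median as a line), beside the quartiles and median of all 12859 genes (grey boxes). The box narrows after day 3, from -0.47 to 0.38 in the first interval to -0.12 to 0.13 in the last, while the members' medians stay above it or at its upper edge.

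Of the subunits, those of the non-canonical branch climbed and the canonical ones did not pass the limit. RELB (ENSG00000104856), the partner of the processed NFKB2 product, was at 6.45 FPKM on day 0 and at 11.2, 22.0 and 25.9 in the later libraries, with ratios of 0.71, 1.62 and 1.85. NFKB2, which encodes the precursor of that branch, was at 25.3, 33.0, 52.6 and 61.9 FPKM, with ratios of 0.37, 1.03 and 1.26. Both were lowest on day 0 and highest on day 9, and both passed the limit on days 6 and 9. RELA, the main activating subunit, was the most abundant of the 5 on day 0 and held 62.0, 47.8, 51.9 and 56.7 FPKM. NFKB1 was at 16.0, 15.1, 20.7 and 25.7 FPKM, and its ratio reached 0.65 on day 9. REL stayed between 4.59 and 5.80 FPKM. By day 6 the level of NFKB2 was close to that of RELA, and by day 9 that of RELB was close to that of NFKB1.

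Within the IkB family the atypical members passed the limit, and the classical cytoplasmic inhibitors did not. NFKBIZ, a nuclear cofactor that is needed for a subset of secondary response genes, was at 9.15 FPKM on day 0 and at 18.7, 26.3 and 31.5 in the later libraries (ratios 0.95, 1.43 and 1.68). BCL3, a nuclear cofactor of the NFKB1 and NFKB2 products, was at 10.1, 19.2, 21.3 and 22.0 FPKM (ratios 0.86, 1.01 and 1.05), so it had nearly reached its later level by day 3. The most abundant inhibitor, NFKBIA, was at 40.4, 46.3, 65.1 and 70.3 FPKM, and NFKBIE at 13.5, 16.0, 18.7 and 23.9, with day 9 ratios of 0.79 and 0.78. In both genes each library was above the one before. NFKBIB followed another course, at 20.7, 11.2, 17.2 and 19.7 FPKM, with its lowest level on day 3.

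Among the kinases the members did not move together. IRAK2, a kinase-like mediator downstream of the interleukin 1 and Toll-like receptors, was at 2.77 FPKM on day 0 and at 6.23, 12.0 and 13.0 on days 3, 6 and 9 (ratios 0.94, 1.79 and 1.89). Its relative IRAK1, which acts at the same step, was at 70.8, 34.5, 43.2 and 48.2 FPKM (ratios -1.02, -0.70 and -0.55). IRAK1 passed the lower limit on day 3 but not under either rescaling of the libraries, where its ratio was -0.82 and -0.89. On day 0 the level of IRAK1 was far above that of IRAK2, and the gap was narrower in every later library. MAP3K8, the kinase that links NF-kB signalling to the ERK pathway, was at 7.91, 2.65, 2.24 and 3.23 FPKM (ratios -1.29, -1.46 and -1.08), with all later libraries below day 0, though its day 9 ratio was -0.97 under both rescalings, within the limit. For the catalytic subunits of the IkB kinase, IKBKB was at 12.4, 22.4, 23.6 and 20.8 FPKM and CHUK at 17.8, 10.5, 12.6 and 13.8, in neither case past the limit. CHUK was thus the more abundant of this pair on day 0 and IKBKB on every later day.

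Of the 7 receptors, 2 were past the limit on days 6 and 9 (background 9.01% and 9.60%), and both had most of their difference from day 0 by day 3. TLR3, an endosomal receptor for double-stranded RNA, was at 4.41 FPKM on day 0 and at 12.0, 10.6 and 13.3 on days 3, 6 and 9 (ratios 1.27, 1.10 and 1.40). CD40, a receptor of the TNF family that feeds the non-canonical branch, was at 0.265, 1.5, 1.71 and 1.96 FPKM, and its ratios of 0.98, 1.10 and 1.23 start from a level under 1 FPKM. By the leading transcript alone the ratio of TLR3 was 0.91 on day 3 and 0.75 on day 6, within the limit. TLR4, the receptor for lipopolysaccharide, had the same course within the limit, at 10.8 FPKM on day 0 and 17.3 to 17.9 afterwards. TNFRSF1B was the exception among the receptors, since it was at 2.25, 2.09, 3.11 and 5.11 FPKM and its largest step was the last (ratio to day 0 of 0.91 on day 9). The main TNF receptor TNFRSF1A was abundant throughout, at 56.7 to 73.0 FPKM, and IL1R1 stayed between 2.87 and 4.27. TLR2, a receptor for bacterial lipoproteins, was at 0.275 to 0.641 FPKM and below the minimum in every library.

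The adaptors and ubiquitin ligases held both one of the steepest climbs and the only member whose level fell at each step. BIRC3 (ENSG00000023445), a ubiquitin ligase at the TNF receptor complex and a known NF-kB target, was at 4.61 FPKM on day 0 and at 10.2, 30.5 and 46.3 in the later libraries (ratios 0.998, 2.49 and 3.08, the first just under the limit). Its paralog BIRC2, which has the same enzymatic role, was at 70.9, 57.0, 54.5 and 63.1 FPKM, with ratios between -0.37 and -0.17. The paralogs thus came from very different levels on day 0 to nearer ones on day 9. TRAF1, an adaptor that binds TRAF2 and BIRC proteins, was at 0.834, 1.67, 3.85 and 6.70 FPKM (ratios 0.54, 1.40 and 2.07), while TRAF2 was at 16.8, 22.6, 28.7 and 25.9 FPKM within the limit. MYD88 (ENSG00000172936), the adaptor shared by most Toll-like receptors and the interleukin 1 receptor, was at 20.4 FPKM on day 0 and at 8.52, 7.71 and 7.14 on days 3, 6 and 9 (ratios -1.17, -1.30 and -1.40, the first -0.98 with libraries rescaled to the same total). TLR3, which signals without MYD88, and MYD88 therefore moved in opposite directions.

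Of the feedback inhibitors, 2 of 3 passed the limit, on days 6 and 9 (background 9.01% and 9.60%). TNFAIP3 (ENSG00000118503), the ubiquitin-editing enzyme A20, was at 7.90 FPKM on day 0 and at 16.0, 38.1 and 63.3 in the later libraries (ratios 0.94, 2.14 and 2.85). TNIP1, a ubiquitin-binding partner of A20, was the most abundant inhibitor in every library, at 77.1, 126, 156 and 202 FPKM (ratios 0.71, 1.01 and 1.37). ZC3H12A, a ribonuclease that degrades inflammatory mRNAs, was at 3.81, 4.82, 6.59 and 8.04 FPKM, with a day 9 ratio of 0.91. In all 3 genes each library was above the one before.

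The effector targets held the most abundant member of every library, and 7 of these 8 genes were 2-fold higher on day 9 (background 9.60%). SOD2 (ENSG00000112096), the mitochondrial superoxide dismutase, was at 43.9 FPKM on day 0 and at 123, 350 and 518 in the later libraries (ratios 1.46, 2.97 and 3.53). IER3, an early response gene that modulates cell survival, was at 85.5, 192, 275 and 371 FPKM (ratios 1.16, 1.67 and 2.11). With 1 FPKM added SOD2 had the highest ratio of the members on every later day, but with 0.1 FPKM added VCAM1 and CD40 (2.55 and 2.13) were above it on day 3, VCAM1 (3.07) on day 6 and BCL2A1 (3.70) on day 9. SOD2 and IER3 were the most abundant members on days 6 and 9, and both exceeded day 0 from day 3 onwards. The adhesion molecules differed in level and in timing. ICAM1 (ENSG00000090339) was at 26.6, 35.2, 111 and 164 FPKM (ratios 0.39, 2.02 and 2.58), with its main step between days 3 and 6. VCAM1 was at 0.286, 2.16, 3.14 and 2.52 FPKM (ratios 1.30, 1.69 and 1.45), with its main step before day 3 and a day 9 level below that of day 6.

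A later course was seen in PTX3, BCL2A1 and TNFAIP6, whose ratios with 1 FPKM added passed the limit on day 9 but not before. PTX3, a secreted pattern recognition protein of the pentraxin family, was at 13.9, 14.1, 26.3 and 43.5 FPKM (ratios 0.02, 0.87 and 1.58). BCL2A1, an antiapoptotic member of the BCL2 family, was at 0.324, 0.321, 1.48 and 5.41 FPKM (ratios -0.00, 0.91 and 2.28). TNFAIP6, a hyaluronan-binding protein, was at 0.372, 0.118, 0.847 and 1.79 FPKM, and its day 9 ratio of 1.03 lies just past the limit. The day 6 calls depend on the settings, since BCL2A1 reached 1.27 and 1.90 on day 6 with 0.5 and 0.1 FPKM added, TNFAIP6 1.0049 with 0.1 FPKM, and PTX3 1.04 with libraries rescaled to the same total. On day 3 the ratios of all 3 genes to day 0 were at or below that of PTX3, and that of TNFAIP6 was -1.11 with 0.1 FPKM added. The remaining effector, TNFAIP2, was at 14.8 to 19.3 FPKM and within the limit on every day.

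**Figure D4:**
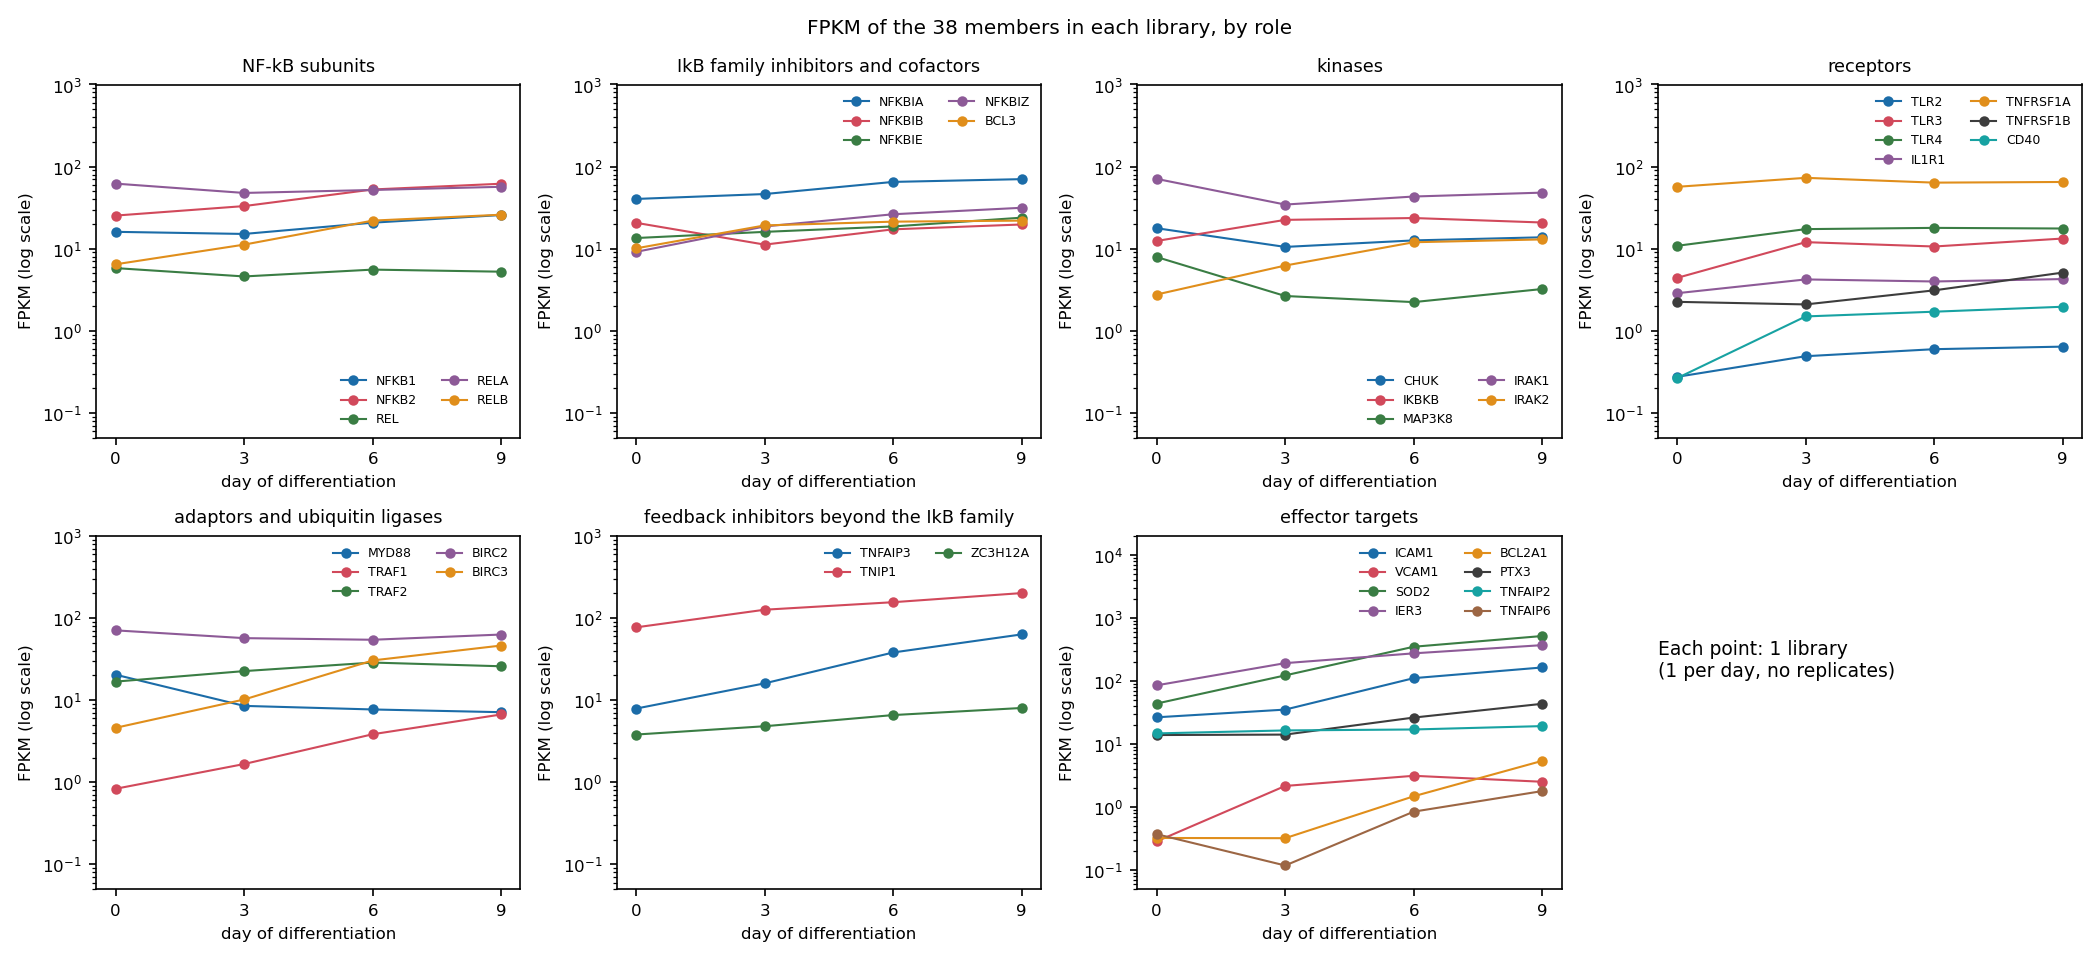
FPKM on a log scale against day for each of the 38 members, in 1 panel per role, with 1 library per point. SOD2 climbs from 43.9 to 518 FPKM and BIRC3 from 4.61 to 46.3, while RELA, BIRC2 and TNFRSF1A stay nearly level and MYD88 drops from 20.4 to 7.14.

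The gene values are sums over 188 annotated transcripts, of which 14 were listed at 0 in every library, and the leading transcript (that of the highest mean FPKM) moved in the direction of its gene from day 0 to day 9 in 37 of 38 members. The 3 genes described next were picked after their values were seen, because their transcripts did not change in proportion. TRAF1 changed its leading form. ENST00000373887 was at 0.833 FPKM on day 0 and 1.5 on day 9, whereas ENST00000540010 was near 0 on day 0 and at 0.379, 2.43 and 5.20 on days 3, 6 and 9, so its share of the gene went from 0.0258% to 77.6%. In TNIP1, ENST00000315050 was at 5.90, 9.53, 29.7 and 64.0 FPKM and its share went from 7.65% to 31.7%, while ENST00000520931 stayed between 17.4 and 24.5 FPKM. In SOD2, ENST00000367055 made up 27.6% of the gene on day 0 and 41.0% to 42.7% on the later days. By contrast ENST00000263464 of BIRC3 held 87.3% to 93.9% and ENST00000264832 of ICAM1 51.6% to 55.2% of their genes in every library. Splitting fragments among overlapping transcripts is an estimate, and its error is not given in the deposited values.

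**Figure D5:**
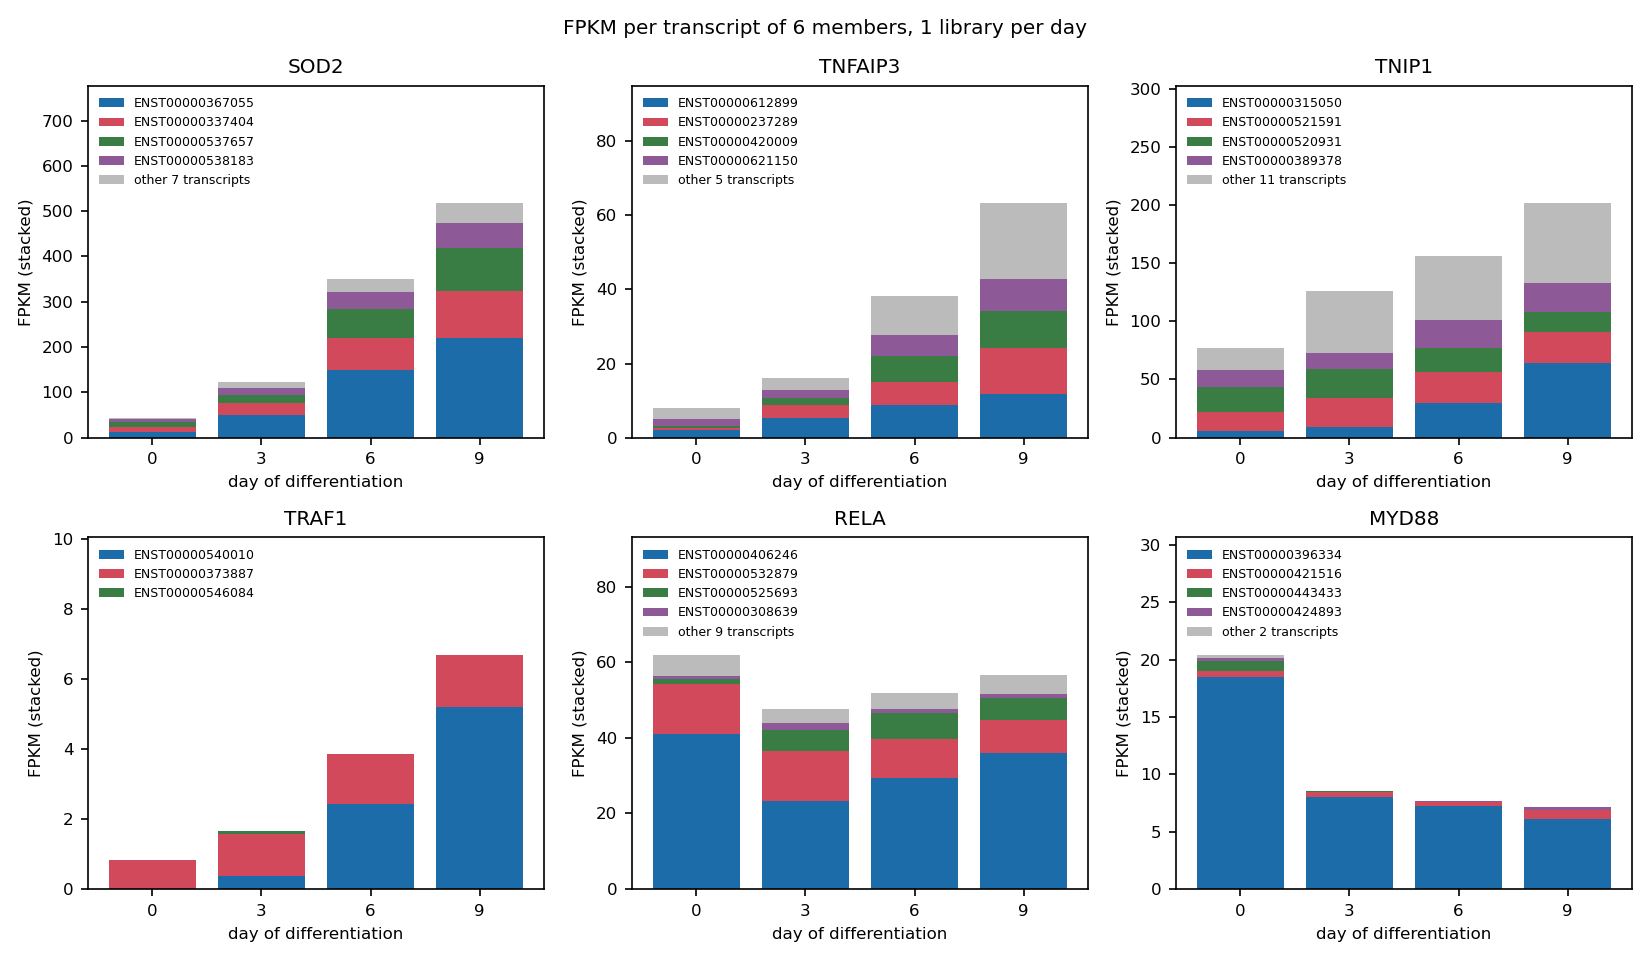
Stacked FPKM per transcript in each library for SOD2, TNFAIP3, TNIP1, TRAF1, RELA and MYD88, with the 4 leading transcripts coloured and the others in grey. In TRAF1 the blue form ENST00000540010 is close to 0 on day 0 and reaches 5.20 FPKM on day 9, while the red form ENST00000373887 stays close to or below 1.5.

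Further genes of the pathway were read from a separate list of 41 signalling genes, of which 35 passed the minimum. Their median ratios were -0.18, -0.08 and -0.12 on days 3, 6 and 9, near those of all genes. Higher by 2-fold were 1, 1 and 3 of them, beside 8.13%, 9.01% and 9.60% of all genes. Lower were 0, 0 and 2, beside 5.30%, 6.42% and 6.52% of all genes. None passed the limit on all 3 days. Of 20 other known NF-kB targets, 16 passed the minimum, with median ratios of 1.17, 1.22 and 1.40. Higher were 9, 11 and 11 of these and lower were 0 on each day, beside the same shares of all genes in each direction. Both lists were drawn up with earlier results of these data known, and the difference between them was not tested. The 9 targets higher on all 3 days were C3, CFB, SAA1, SAA2, BCL2L1, PLAU, TNFAIP8, EBI3 and NINJ1.

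Of these 9 genes, SAA1, SAA2 and C3 had the highest day 9 ratios. SAA1, an acute phase apolipoprotein, was at 1.12 FPKM on day 0 and at 9.94, 46.7 and 208 in the later libraries (ratios 2.36, 4.49 and 6.62). SAA2, a near-identical copy that may share fragments with it, was listed at 0 on day 0 and at 55.6 FPKM on day 9. Complement C3 was at 3.01, 16.9, 47.4 and 100 FPKM (ratios 2.16, 3.59 and 4.65). These genes were higher in each library than in the one before, like SOD2 and TNFAIP3 among the members. CFB, also of the complement system, was at 7.47, 30.8, 29.6 and 37.0 FPKM, with its main step before day 3. PLAU, BCL2L1, TNFAIP8 and NINJ1 instead reached most of their day 9 level by day 3, as PLAU shows at 4.89, 35.1, 43.4 and 50.2 FPKM.

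The cell type label was checked by marker genes. The osteoblast markers RUNX2 (7.37, 26.2, 19.3 and 18.2 FPKM) and ALPL (0.294, 4.32, 4.35 and 4.18) were higher on all later days, and COL1A1 was abundant throughout, while SP7, BGLAP, IBSP and PHEX were below 1 FPKM in every library. Of 10 leukocyte markers, 8 were below 1 FPKM everywhere, among them PTPRC, and CD3E was listed at 0 in every library. LAPTM5 was at 0.441, 2.62, 1.74 and 1.76 FPKM. The summed level of that list went from 17.2 FPKM on day 0 to 41.4, 68.3 and 93.6, nearly all of it CD68 (16.2, 37.5, 65.1 and 90.6 FPKM), which moved in the same direction as the members, and its part in their course was not tested. Of 5 endothelial markers, PECAM1, CDH5 and VWF were below 1 FPKM everywhere, while TEK was at 9.97, 13.96, 14.5 and 16.6 FPKM and KDR at 0.227, 0.726, 1.07 and 1.05. That list summed to 10.6 FPKM on day 0 and 18.2 on day 9, mostly TEK, and its part in the members' course was not tested either. In bulk RNA, fewer cells of a type and less RNA per cell cannot be told apart. Total FPKM ranged from 538072 to 617857 per library. In low genes with 1 transcript, the FPKM of a single fragment was estimated at 1.27, 1.19 and 1.03 times that of day 0 on days 3, 6 and 9, from the most frequent ratio, which 96 of 633, 71 of 637 and 50 of 620 such genes showed. It gives no total of reads per library. The fragments behind each member could not be read off, so no counting interval is given, and the values of members under 1 FPKM are the least certain.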

How the data were processed

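RNA of hFOB 1.19 cells on days 0, 3, 6 and 9 was sequenced, 1 library per day, and columns were assigned by the day that each title gives. By the study's methods, ribosomal RNA was removed, directional libraries were made and reads were aligned with TopHat and Bowtie. RNase R is described for the mRNA libraries, which could alter levels of linear RNA. The submitters' processing notes name Bowtie 0.12.2 and the build mm8, whereas the table carries human Ensembl IDs, so no coordinates of that table are given. The authors deposited FPKM per transcript; the program that made them is not given in the sources used here. The comparison tables of the authors (fold changes, p-values and q-values) and the lncRNA and circRNA tables were not used.

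FPKM were summed per gene symbol with Python 3.11.15, pandas 2.3.3 and numpy 2.4.6. Ratios are log2((FPKM + 1)/(FPKM + 1)), with a minimum of 1 FPKM in any library and a 2-fold limit, on 12859 of 19610 symbols. With 1 library per day the methods' DESeq2, which needs counts, could not be used, and no p-value is given. Alternatives were the pseudocount, the minimum, the limit, the scaling and the leading transcript. All 38 members are accounted for; those past the limit on any day or under the minimum are named, as are other targets past it on all 3 later days. The members and lists were chosen with earlier results of these data known.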

Additional observations from a re-analysis of the deposited data

How the results depend on the processing

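No paired analysis was possible because every day is held by a single library. No median of the members changed sign under the alternatives run, and no minimum left every count as it was. Each background below is the share of all genes at the same setting. None was computed for counts on all 3 days, so whether those counts moved with all genes cannot be told. With a minimum of 5 FPKM, which 33 members passed, 3, 13 and 15 were higher on days 3, 6 and 9 (background 8.03%, 8.87% and 9.20%). On all 3 days 3 were higher, and with either minimum the members' medians moved by less than 0.1. With a pseudocount of 0.1 FPKM, 9 members were higher on day 3 (background 12.0%) and 9 on all 3 days. Between days 3 and 6, 7 were higher (background 1.40%) and between days 6 and 9, 2 (background 0.902%). The medians were 0.92 on day 6 and 1.11 on day 9. With 0.5 FPKM, 7 were higher on day 3 (background 9.97%), 7 on all 3 days and 7 between days 3 and 6 (background 0.894%). The day 9 median was 1.03. A 1.5-fold limit gave 14 higher (background 17.4%) and 5 lower (background 18.5%) on day 3, and 14 higher on all 3 days. It gave 11 higher between days 3 and 6 (background 2.32%) and 6 between days 6 and 9 (background 1.51%). A 4-fold limit left 0 higher on day 3, 4 on day 6 and 7 on day 9 (background 1.66%, 2.01% and 2.34%). It left 0 lower on any day (background 0.770%, 0.925% and 1.03%). In either later interval it left 0 (background at most 0.0700% in each direction), and on all 3 days 0. Rescaling to the same total gave 10 higher and 1 lower on day 3 (background 10.9% and 3.10%) and 1 lower on day 9 (background 4.88%). It gave 10 higher and 0 lower on all 3 days. The medians were 0.56 on day 3 and 0.91 on day 6, beside an all-gene median of 0.10 on day 3. Size factors gave 9 higher on day 3 (background 9.72%), 9 higher and 1 lower on all 3 days, and 1 lower on day 9 (background 4.78%). The medians were 0.50 and 0.86 on days 3 and 6. Leading transcripts alone gave a day 9 median of 1.03 and 2 higher between days 6 and 9 (background 0.643%). Another minimum or limit leaves a gene's ratio as it is, and a smaller pseudocount moves it away from 0. Only the rescalings and the leading transcript could therefore bring a named ratio within the limit or change its sign. Of 390 values of the 44 named ratios past the limit, most of which could thus not be lost, 0 changed sign and 8 came within it. These were MAP3K8 on day 9 (-0.97 under both rescalings), IRAK1 on day 3 (-0.82, -0.89 and -0.99), MYD88 on day 3 (-0.98) and TLR3 by its leading transcript (0.91 on day 3, 0.75 on day 6). The cause was not tested. With 1 library per day, no value has a replicate error.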

Other observations

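Among the other signalling genes, a few passed the limit on single days. LY96, the coreceptor of TLR4, was at 0.724 FPKM on day 0 and had ratios to day 0 of 1.79 on day 6 and 1.90 on day 9. It was the only gene of that list to be 2-fold higher between days 3 and 6 (1.17). TNIP3, a relative of TNIP1 at only 0.201 FPKM on day 0, reached 1.91 on day 9. The deubiquitinase CYLD, at 20.2 FPKM on day 0, reached 1.03 on day 9. On the same day RNF31, the catalytic subunit of the linear ubiquitin ligase, was at -1.32 and the kinase IKBKE at -1.24. IL1RAP, the coreceptor of the interleukin 1 receptor, passed the limit on day 3 (1.02).

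Of 7 genes often used as references, ACTB alone passed the limit, at 7636 FPKM on day 0 and 3066, 2741 and 3081 on days 3, 6 and 9 (ratios -1.32, -1.48 and -1.31). On each later day 6 of the 7 had a ratio to day 0 below 0. Their median ratios were -0.40, -0.42 and -0.24, below those of all genes (-0.08, -0.08 and -0.09).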
